A study of Homo sapiens with 4 samples.

Results

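The 43 genes described here make up a common list of interferon response genes, and their transcripts were counted in single cells of the melanoma line A375 before and after it was made resistant to inhibitors of the MAPK pathway. The members were set by name, and all 43 were found by Ensembl identifier among the 32991 genes listed for every library. Untreated cells (S) were compared with cells kept for 10 to 14 days on vemurafenib (RV), on vemurafenib and cobimetinib (RVC), or on vemurafenib and trametinib (RVT), and in each treated group the inhibitors were withdrawn 24 h before the cells were captured. Vemurafenib inhibits mutant BRAF kinase, whereas cobimetinib and trametinib inhibit the kinases MEK1 and MEK2 below it. The labels give the same commercially available line and the same medium for all groups and name no added interferon, and each condition is 1 culture sequenced as 1 droplet library. Differences between conditions therefore have no replicate check, and no test was made between them.

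Interferons alpha and beta bind a common receptor at the cell surface and, through the kinases JAK1 and TYK2, activate STAT2, which joins IRF9 in the complex ISGF3. This complex binds the interferon-stimulated response element (ISRE) in front of its target genes, while interferon gamma acts mainly on another element, the gamma-activated site (GAS). The target genes encode proteins that sense viral RNA, stop its translation or degrade it, block entry and release of viruses, and regulate the pathway itself, and many are also transcribed at a low level in cells that have met no interferon. In melanoma the pathway is best known for its link to antigen presentation and immune recognition.

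The filtered libraries held 6334 cells and 58611860 UMIs in S, 4177 cells and 52389992 UMIs in RV, 7623 cells and 32968217 UMIs in RVC, and 8445 cells and 25407545 UMIs in RVT. A UMI is a unique molecular identifier and stands for 1 counted transcript molecule. The median cell of S, RV, RVC and RVT had 8807.5, 11553, 3959 and 2871 UMIs, and any 2 libraries shared 36 to 105 cell barcodes, 0.862% to 1.38% of the smaller library. Levels are given as CPM, the summed UMIs of a gene per 1000000 UMIs of its library, and ranges in brackets are exact 95% intervals that cover counting error only. S and RV were counted with one gene annotation and RVC and RVT with another, and the latter pair was also shallower. The median share of a cell's UMIs from mitochondrial genes was 3.15%, 3.06%, 3.58% and 5.77% in S, RV, RVC and RVT. Fewer than 500 genes were found in 903 barcodes of RVC and 1084 of RVT, left out here, and in 0 of S or RV. The part of these differences in the results was not tested. Across all genes, those with more GC in the last 500 transcript bases had lower log2 ratios to S in RVC (Spearman correlation across 12962 genes -0.32) and in RVT (-0.38 across 13335 genes), but not in RV (-0.0035 across 12380 genes). In ratios of RVC or RVT to S the drugs and this difference between libraries cannot be told apart, whereas RV over S and RVT over RVC compare libraries of the same annotation, although RVT over RVC also differed with GC content (-0.15 across 13186 genes).

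Markers of other cell types were close to 0 for leukocytes (summed level of 6 markers 0.394 to 0.878 CPM in the 4 libraries), plasmacytoid dendritic cells (3 markers, 0.0573 to 0.334 CPM), endothelial cells (3 markers, 0.392 to 1.40 CPM) and epithelial cells (2 markers, 0.0341 to 0.121 CPM). The 5 fibroblast markers summed to 0.512, 0.744, 162 and 35.4 CPM in S, RV, RVC and RVT, and COL3A1, a fibrillar collagen gene, supplied 121 CPM of the RVC value. The melanocyte lineage list of 7 genes gave 129, 67.5, 8.28 and 61.3 CPM in S, RV, RVC and RVT. MITF, of this list, had 9.78, 20.2, 8.13 and 41.3 CPM in S, RV, RVC and RVT. It was at 0.832 times S (0.717 to 0.963) in RVC and 4.22 times S (3.81 to 4.68) in RVT. SOX10, a transcription factor of this lineage, was at 86.3 CPM in S, 39.9 in RV and 19.4 in RVT but had 0 UMIs in RVC. S100B had 32.8, 6.97, 0 and 0.276 CPM in S, RV, RVC and RVT. RVT shared some of these differences, with LUM at 21.8 CPM beside 22.6 in RVC and 0.102 in S. The list of 4 genes of undifferentiated melanoma summed to 11937, 16888, 6330 and 2026 CPM in S, RV, RVC and RVT. Most of this was S100A6, with 9408, 14119, 5692 and 1598 CPM, and VIM had 2433, 2587, 559 and 330 CPM. AXL had 94.5, 170, 78.5 and 98.1 CPM, and NGFR 1.09, 11.3, 0.455 and 0.0394 CPM, in the same order of libraries. The absence of SOX10 and S100B from RVC goes against the markers of A375 in S, whereas MITF stayed near its level in S. Whether RVC holds the labelled line cannot be settled from these counts, a limit on every RVC value below. RVT kept SOX10 but also departed from S, with S100B at 0.276 CPM, VIM at 330 and S100A6 at 1598. The RVT values are therefore to be read with like care. What part these markers have in the interferon genes was not tested.

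To show what the members share that the list did not use, the 300 bases around their transcription starts (250 before and 50 after, RefSeq, GRCh38.p14) were searched on both strands for the ISRE core, which is GAAA, any 2 bases and GAAA again, and for the GAS motif TTCNNNGAA. Promoters of 33 members were found in the table used, and the other 10 (IRF7, IFIT2, OAS2, OASL, USP18, IFITM2, LY6E, TRIM22, GBP2 and IDO1) were not searched. The ISRE core was present for 24 of 33 members (72.7%) against 4.38% of 27305 genes with a promoter of the same length, and a longer form, in which CT follows the core, for 15 (45.5%) against 0.322%. The GAS motif was present for 11 members (33.3%) against 9.38%. Such a match describes the letters in the window and does not show binding.
The stretches around the core are printed for members on which the results below turn, 5′ to 3′ on the strand of the gene, with 1 core in capitals. In the stretches of ISG15 and BST2 a second core overlaps the one in capitals, and its other bases are in lower case. Distances run from the first capital letter to the start of transcription, or to 1 of the listed starts where a gene has several. When the core lies on the opposite strand it reads as TTTC, any 2 bases and TTTC.
ISG15, chr1:1013378-1013411, plus strand, core 107 bases before the start: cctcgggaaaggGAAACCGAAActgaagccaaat
ISG20, chr15:88638935-88638968, plus strand, core 69 bases before the start: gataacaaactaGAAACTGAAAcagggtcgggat
IFITM3, chr11:320874-320907, minus strand, core 35 bases before the start: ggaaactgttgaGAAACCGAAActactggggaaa
BST2, chr19:17405739-17405772, minus strand, core 130 bases before the start: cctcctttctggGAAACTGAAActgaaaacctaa
IFIT1, chr10:89392508-89392541, plus strand, core 103 bases before the start: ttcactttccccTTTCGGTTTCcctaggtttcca
IFIT3, chr10:89332466-89332499, plus strand, core 51 bases before the start: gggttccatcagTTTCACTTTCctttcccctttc
DDX60, chr4:168318784-168318817, minus strand, core 53 bases before the start: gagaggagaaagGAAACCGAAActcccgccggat
RSAD2, chr2:6877620-6877653, plus strand, core 145 bases before the start: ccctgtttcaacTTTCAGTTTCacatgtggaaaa
IFI27, chr14:94110616-94110649, plus strand, core 108 bases before the start: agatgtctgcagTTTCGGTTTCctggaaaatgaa
GBP1, chr1:89065314-89065347, minus strand, core 127 bases before the start: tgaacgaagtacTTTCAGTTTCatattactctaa
DTX3L, chr3:122564320-122564353, plus strand, core from 6 bases before the start across it: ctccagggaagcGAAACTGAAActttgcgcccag
PARP9, chr3:122564320-122564353, minus strand, core 41 bases before the start: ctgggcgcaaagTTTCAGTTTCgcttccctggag
PARP9 and DTX3L are transcribed from opposite strands, and the same core, at chr3:122564332-122564341, serves as the match of both. PARP9 has a second listed start, whose window holds no core. The core was therefore found near the starts of members at least 2-fold higher than S in RVT (IFIT1, DDX60, GBP1) and at least 2-fold lower (ISG15, ISG20). For ISG15 the RVT ratio turned above S after centring on GC content (log2 1.32), as given below.

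The summed level of the 43 members hardly differed between the libraries, at 1069 CPM (1060 to 1077) for S, 1083 (1075 to 1092) for RV, 1176 (1164 to 1188) for RVC and 1235 (1221 to 1249) for RVT. The ratios to S were 1.01, 1.1 and 1.16 and turned to 0.984, 0.949 and 0.808 with TMM factors, which scale a library by the bulk of its genes. This sum was carried by few genes, in UMIs that are not divided by transcript length. IFITM3, LY6E and ISG20 held 33.6%, 27% and 10.9% of the member UMIs in S, whereas IFITM3, IFITM2 and UBE2L6 held 28.3%, 21.0% and 8.46% in RVT. Without the 5 most abundant members (IFITM2, IFITM3, LY6E, ISG20 and UBE2L6) the other 38 summed to 171 CPM (168 to 175) for S, 214 (210 to 218) for RV, 357 (350 to 363) for RVC and 474 (465 to 482) for RVT, ratios to S of 1.25, 2.08 and 2.77 that stayed above 1 with TMM factors at 1.21, 1.80 and 1.93. The sum of the 38 was thus higher in the double-resistant libraries than in S, while the sum over all 43 stayed nearly level.

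**Figure D1:**
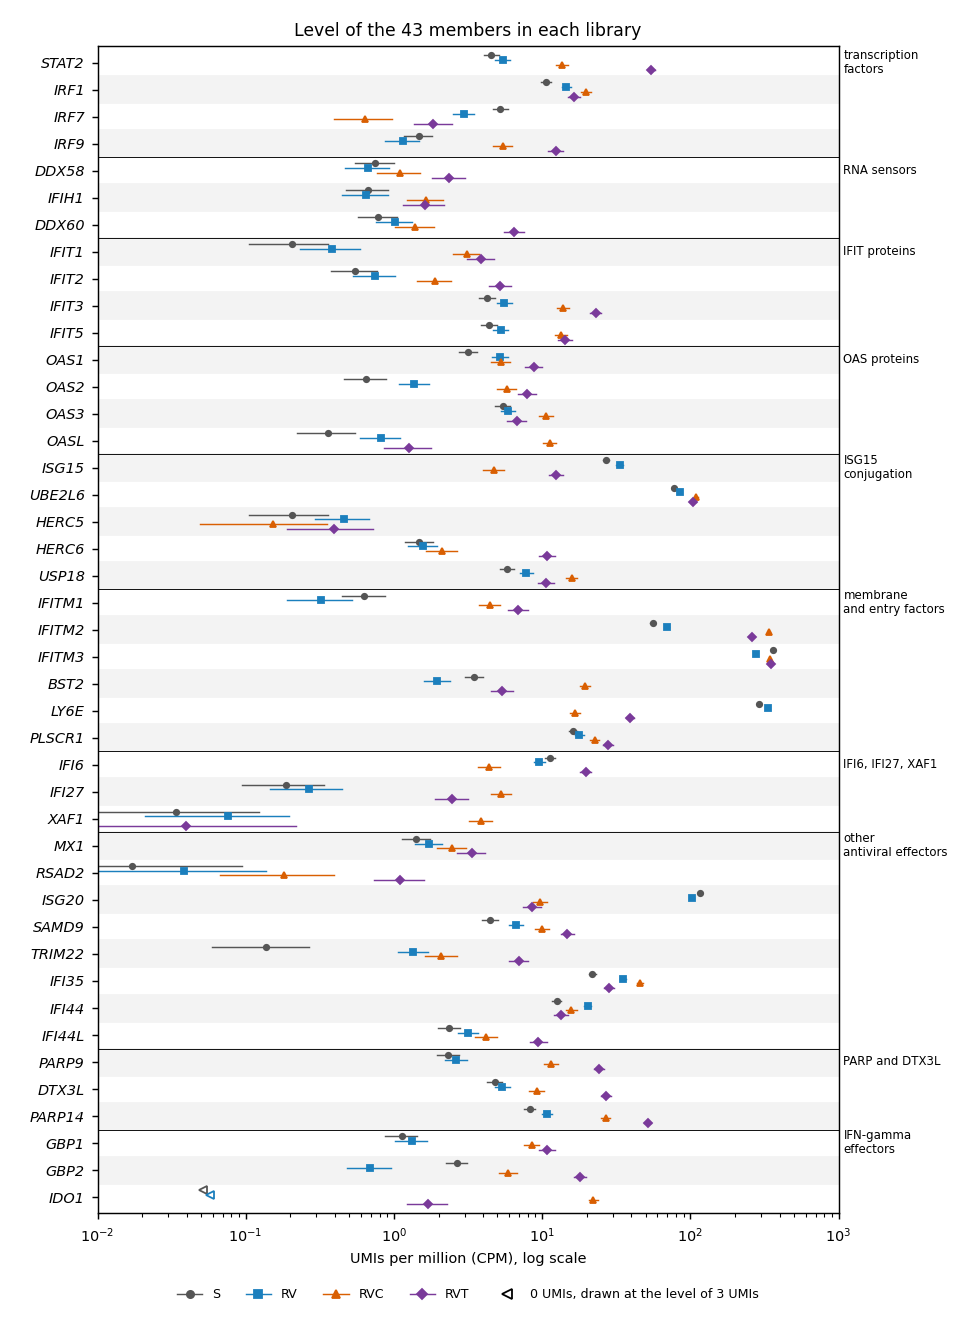
CPM (log axis) of the 43 members, grouped by role, in S, RV, RVC and RVT. Points are library values, lines are exact 95% Poisson intervals (cut at the left edge of the axis), and open triangles mark 0 UMIs at the level of 3 UMIs; STAT2 lies at 4.56 CPM in S and at 54.5 CPM in RVT, while LY6E lies at 289 and 334 CPM in S and RV and at 16.7 and 39.5 CPM in RVC and RVT.

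Counted gene by gene, few members passed 2-fold after vemurafenib alone. Of the 32 members with at least 1 CPM in S or RV, 2 were at least 2-fold higher in RV, against 3.89% of all genes, and 1 was at least 2-fold lower, against 3.27%. In RVC 23 of 41 members were higher than in S, against 25.1% of all genes, and 5 were lower, against 22.8%. In RVT 27 of 41 were higher, against 35.9%, and 4 were lower, against 21.7%. In S 14 members were under 1 CPM, and such a member met the minimum only through the treated library. It could not be counted as lower, which limits every such count here and below. OAS2 and TRIM22, the 2 higher in RV, were among them. All of them that met the minimum in RVT were among the higher. The same rule held for all genes, but the share of them under 1 CPM in S was not counted. Medians of the members' log2 ratios to S were 0.26 (RV), 1.17 (RVC) and 1.81 (RVT), beside 0.02, 0.23 and 0.46 over all genes that passed the same minimum of 1 CPM. Past 2-fold, 19 members were higher than S in both RVC and RVT, 4 in RVC only (BST2, IFI35, USP18 and XAF1), 8 in RVT only (DDX58, DDX60, DTX3L, HERC6, IFI44L, MX1, OAS1 and RSAD2), and 4 were lower in both (IRF7, ISG15, ISG20 and LY6E). The share of all genes with each of these joint patterns was not counted, so they serve only to list the names. Some of these calls depended on the scaling. With TMM factors IFI35 (log2 0.86), SAMD9 (0.96) and GBP2 (0.93) fell short of 2-fold in RVC, and OAS1 (0.95), MX1 (0.72) and IFIH1 (0.76) in RVT, while after centring on GC content BST2 (2.42) and IFI35 (2.17) passed in RVT as well and MX1 (1.34) in RVC. Centring also ended the calls of IRF7 (-0.72) and ISG15 (-0.19) in RVC and of IRF7 (0.93) and LY6E (-0.44) in RVT, and turned ISG15 in RVT to 1.32. IFI44L passed in RVC (1.18) when every cell had equal weight. With TMM factors the members' counts were 20 higher and 5 lower in RVC, against 18.9% and 26.6% of all genes, and 23 higher and 4 lower in RVT, against 22.3% and 30.4%. These ratios share the S library, so they are given side by side and not as independent evidence.

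**Figure D2:**
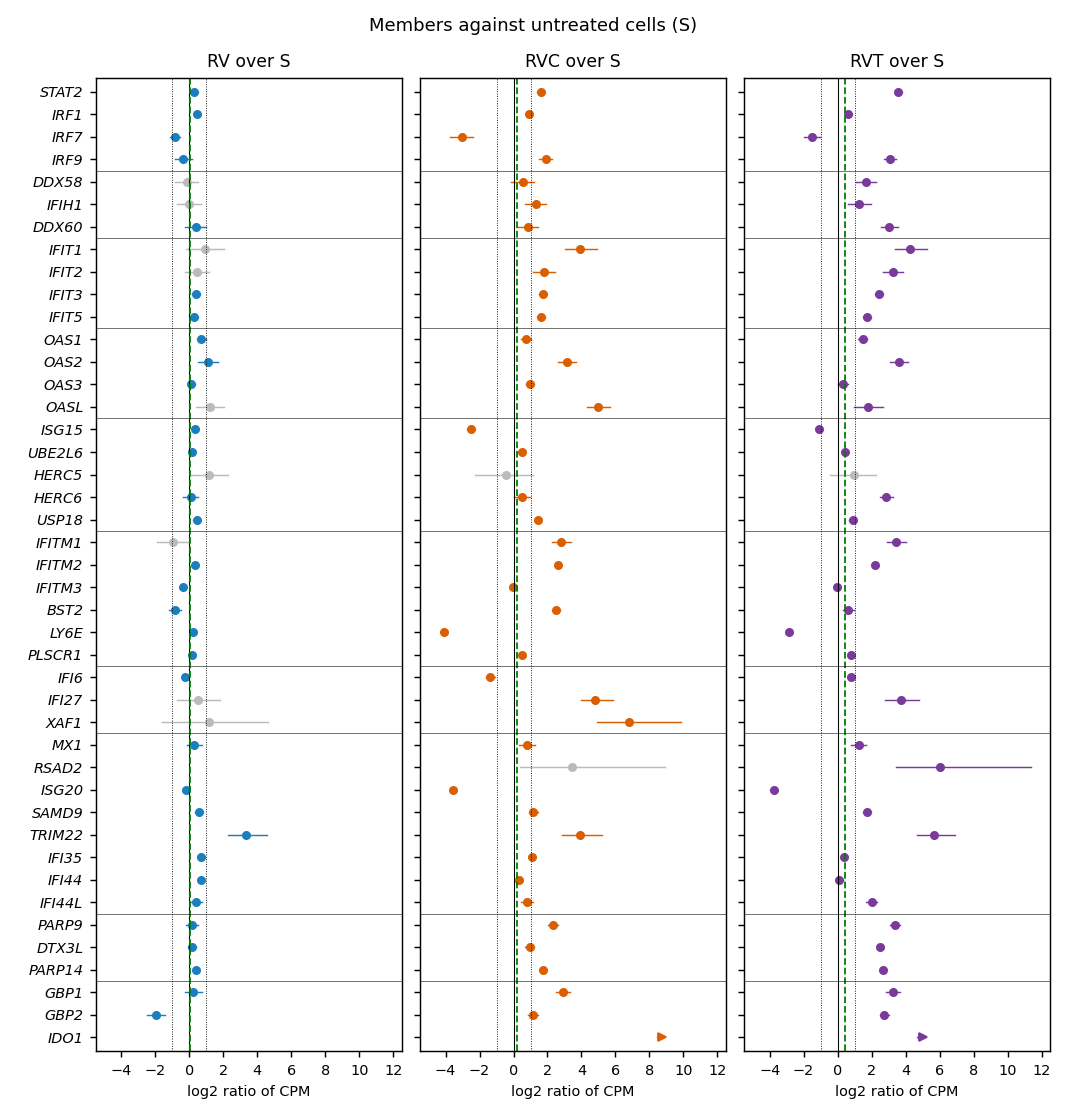
Log2 ratio of CPM to S for each member in RV, RVC and RVT, with exact 95% intervals of the ratio. Grey members had less than 1 CPM in both libraries, arrowheads are lower bounds (0 UMIs in S), dotted lines mark 2-fold and the dashed green line the median of all genes (0.02, 0.23 and 0.46); in RV 2 members pass 2-fold upwards, in RVC 23 and in RVT 27.

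Among the transcription factors, STAT2 and IRF9, both part of ISGF3, were higher in both double-resistant libraries. STAT2 (chr12:56341597-56360155, minus strand, GRCh38) was at 4.56, 5.44, 13.7 and 54.5 CPM in S, RV, RVC and RVT. It was 3.01-fold (2.58 to 3.51) higher in RVC and 12.0-fold (10.5 to 13.7) higher in RVT than in S, and S and RV lay close together. In cells thinned at random to 1500 UMIs each, 0.931% of S, 1.01% of RV, 2.26% of RVC and 7.49% of RVT cells had a STAT2 UMI, the same order as the CPM. IRF9 had 1.47, 1.15, 5.43 and 12.4 CPM in S, RV, RVC and RVT, ratios of 3.70 (2.85 to 4.84) and 8.42 (6.62 to 10.8) for RVC and RVT. IRF1, a factor induced by both interferon types, had 10.6, 14.6, 19.8 and 16.5 CPM in S, RV, RVC and RVT and stayed within 2-fold. IRF7, which drives the later phase of interferon production, went the other way, with 5.24, 2.96, 0.637 and 1.85 CPM in S, RV, RVC and RVT. It was 8.22-fold (5.28 to 13.5) lower in RVC and 2.83-fold (2.08 to 3.94) lower in RVT, and its GC content of 62.2% is treated with that of ISG15 and LY6E below.

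The sensors of viral RNA were rare transcripts in every library, with a summed level of 2.2, 2.33, 4.13 and 10.4 CPM in S, RV, RVC and RVT. DDX60 contributed most of the RVT value, with 0.785, 1.01, 1.40 and 6.45 CPM in S, RV, RVC and RVT, 8.22-fold (5.90 to 11.7) above S in RVT. DDX58, which encodes RIG-I, had 0.751, 0.668, 1.09 and 2.36 CPM and was 3.15-fold (2.10 to 4.75) higher in RVT. IFIH1, which encodes MDA5, had 0.665, 0.649, 1.64 and 1.61 CPM and was above S by 2.46-fold in RVC and 2.43-fold in RVT. All 3 sensors passed 2-fold in RVT, beside 35.9% of all genes, and only IFIH1 in RVC, beside 25.1%. As all 3 were under 1 CPM in S, they met the minimum only through RVC or RVT and could not be counted as lower. These counts are therefore no result for the sensors as a group. For IFIH1 in RVT the ratio fell below 2 with TMM factors (log2 0.76) and after centring on GC content (log2 0.74).

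The IFIT proteins bind viral RNA and hinder its translation, and their 4 genes lie side by side on chromosome 10. All 4 were at least 2-fold above S in RVC and in RVT, beside 25.1% and 35.9% of all genes, and their sum was 9.40, 12.0, 32.2 and 46.4 CPM in S, RV, RVC and RVT. IFIT3 (chr10:89327894-89340971) had 4.25, 5.57, 13.9 and 23.0 CPM in S, RV, RVC and RVT, 3.27-fold (2.80 to 3.83) and 5.42-fold (4.66 to 6.31) above S in RVC and RVT. IFIT5 had 4.40, 5.27, 13.4 and 14.3 CPM and differed little between the double-resistant libraries. IFIT2 had 0.546, 0.744, 1.88 and 5.23 CPM. IFIT1 (chr10:89392546-89406486) had 0.205, 0.382, 3.09 and 3.86 CPM and showed the largest ratios of the family, 15.1 (8.29 to 30.2) in RVC and 18.8 (10.3 to 37.7) in RVT. RV lay between S and RVC for each of the 4, with ratios to S of 1.20 to 1.86, although IFIT1 and IFIT2 were under 1 CPM in both S and RV. IFIT1 and IFIT2 thus met the minimum only through RVC or RVT and could not be counted as lower. The last 1000 transcript bases of the 4 genes share no stretch of 50 bases, so that reads of one are not expected to be counted for another.

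OAS proteins make the second messenger that activates the RNA-degrading enzyme RNase L. OAS2 had 0.648, 1.37, 5.76 and 7.95 CPM in S, RV, RVC and RVT. It was 1 of the 2 members past 2-fold in RV, at 2.12 (1.41 to 3.23), a ratio that fell to a log2 value of 0.79 when barcodes with high doublet scores were kept, and it was 8.89-fold (6.25 to 12.9) and 12.3-fold (8.64 to 17.8) above S in RVC and RVT. OAS1 had 3.17, 5.19, 5.25 and 8.78 CPM in S, RV, RVC and RVT, and OAS3 had 5.43, 5.90, 10.7 and 6.73 CPM. OASL, a relative without this enzyme activity, was largely a transcript of RVC, with 0.358, 0.821, 11.3 and 1.26 CPM. Its ratio to S was 31.5 (20.3 to 51.5) in RVC and 3.52 (1.97 to 6.41) in RVT. Between RVC and RVT only OASL of the 4 differed by 2-fold or more.

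ISG15 is a ubiquitin-like protein, UBE2L6 and the HERC proteins belong to the enzymes that attach it to other proteins, and USP18 removes it. ISG15 (chr1:1001138-1014540, plus strand) was at 27, 33.3, 4.73 and 12.4 CPM in S, RV, RVC and RVT, 5.70-fold (4.84 to 6.77) lower in RVC and 2.17-fold (1.92 to 2.46) lower in RVT than in S. UBE2L6 was abundant throughout, with 77.1, 84.6, 110 and 104 CPM in S, RV, RVC and RVT. USP18 had 5.82, 7.83, 15.8 and 10.7 CPM, 2.72-fold (2.37 to 3.12) above S in RVC. HERC6 had 1.48, 1.57, 2.12 and 10.8 CPM and stood out in RVT, where it was 7.29-fold (5.71 to 9.39) above S. HERC5, the main ligase for ISG15 in human cells, was the 1 member not past the thresholds for individual values, with 5 to 24 UMIs and 0.152 to 0.458 CPM in the 4 libraries. ISG15 was thus the 1 gene of this group that passed 2-fold downwards, and in RVT it turned above S after centring on GC content (log2 1.32).

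Of the proteins that act at membranes and on viral entry, IFITM2, IFITM3 and LY6E gave the largest UMI counts in S and RV. IFITM3 had 359, 278, 345 and 350 CPM in S, RV, RVC and RVT, and 41.0%, 34.5%, 39.5% and 40.6% of thinned cells had a UMI. In CPM it lay close to S in RVC and RVT, which changed after centring on GC content as given below. IFITM2 (chr11:307631-315272, plus strand) had 55.7, 70.0, 338 and 259 CPM in S, RV, RVC and RVT, 6.07-fold (5.84 to 6.31) above S in RVC and 4.65-fold (4.46 to 4.85) above S in RVT. The share of thinned cells with an IFITM2 UMI was 8.0%, 9.86%, 37.1% and 31.1% in S, RV, RVC and RVT, the same order as the CPM. Unlike IFITM3, IFITM2 was thus seen in far more cells of the double-resistant libraries than of S. IFITM1 had 0.631, 0.324, 4.43 and 6.89 CPM, ratios to S of 7.02 (4.86 to 10.4) in RVC and 10.9 (7.62 to 16.0) in RVT. The IFITM transcripts share 10.4% to 17.9% of the 50-base stretches in their last 1000 bases, and the annotated spans of IFITM1 and IFITM2 overlap on the same strand, so their UMIs could have been divided unevenly between them.

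LY6E (chr8:143017982-143023832, plus strand), a membrane-anchored protein that affects the entry of several viruses, was further below S in RVC than any other member in CPM, although after centring on GC content ISG20 (log2 -2.76) lay further below S than LY6E (-1.79). It had 289 CPM (285 to 293) for S, 334 (329 to 339) for RV, 16.7 (15.3 to 18.1) for RVC and 39.5 (37.1 to 42.0) for RVT. It was 17.3-fold (15.9 to 18.9) lower in RVC and 7.32-fold (6.87 to 7.81) lower in RVT than in S, and 35.6%, 40.5%, 2.35% and 6.07% of thinned cells had a UMI. BST2, or tetherin, which holds budding viruses at the cell surface, had 3.48, 1.97, 19.5 and 5.35 CPM in S, RV, RVC and RVT, 5.61-fold (4.79 to 6.60) above S in RVC. PLSCR1, a phospholipid scramblase, had 16.2, 17.9, 22.7 and 27.9 CPM and stayed within 2-fold.

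IFI6, IFI27 and XAF1 encode small mitochondrial or apoptosis-related proteins that are among the classical interferon-inducible transcripts, and each had its own pattern. IFI6 had 11.3, 9.60, 4.40 and 19.7 CPM in S, RV, RVC and RVT, 2.56-fold (2.14 to 3.09) lower than S in RVC. IFI27 had 0.188, 0.267, 5.31 and 2.48 CPM in S, RV, RVC and RVT, ratios to S of 28.3 (15.4 to 57.7) and 13.2 (6.90 to 27.8) in RVC and RVT. XAF1 was nearly limited to RVC, with 2 and 4 UMIs in S and RV, 127 in RVC and 1 in RVT. The RVC level was 3.85 CPM (3.21 to 4.58), and its ratio to S was 113 with a wide counting interval of 30.6 to 942.

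The other antiviral effectors summed to 159, 171, 90.4 and 86 CPM in S, RV, RVC and RVT, and the lower sums in RVC and RVT came from ISG20. ISG20, an exonuclease that degrades single-stranded RNA, had 116, 103, 9.74 and 8.54 CPM in S, RV, RVC and RVT. It was 11.9-fold (10.7 to 13.4) and 13.6-fold (11.9 to 15.7) lower than S in RVC and RVT. TRIM22 (chr11:5689689-5737089, plus strand), a ubiquitin ligase that restricts several viruses, lay on the opposite side, with 8 UMIs and 0.136, 1.36, 2.09 and 6.97 CPM in S, RV, RVC and RVT. It was 9.93-fold (4.78 to 23.9) above S in RV, the largest ratio of any member in that library, and 15.3-fold (7.36 to 36.9) and 51.0-fold (25.3 to 120) above S in RVC and RVT. TRIM22 and OAS2 were the members at least 2-fold above S in all 3 treated libraries, and TRIM22 kept this in RV (log2 2.93) when barcodes with high doublet scores were not removed. Its span overlaps OR56B1 on the same strand, as those of IRF9, IFIT2 and IFITM3 overlap other annotated transcripts. RSAD2, or viperin, had 1, 2, 6 and 28 UMIs in S, RV, RVC and RVT, a ratio of 64.6 (10.7 to 2641) for RVT over S.

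The remaining effectors differed less from S. MX1, a dynamin-like GTPase, had 1.42, 1.72, 2.46 and 3.35 CPM in S, RV, RVC and RVT. SAMD9 had 4.44, 6.68, 10.0 and 14.8 CPM, 2.26-fold (1.91 to 2.67) and 3.34-fold (2.85 to 3.93) above S in RVC and RVT. Its RVC ratio fell short of 2-fold with TMM factors (log2 0.96), with totals without ribosomal and mitochondrial genes (0.98) and after centring on GC content (0.92). IFI35 had 21.8, 35.2, 46.0 and 28.2 CPM, and IFI44 had 12.6, 20.3, 15.8 and 13.5 CPM. IFI44L had 2.37, 3.17, 4.19 and 9.45 CPM, 3.98-fold (3.22 to 4.94) above S in RVT. IFI44 was at 1.08 times S (0.943 to 1.22) in RVT, and below S with TMM factors (log2 -0.41).

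PARP9 and PARP14, of the ADP-ribosyltransferase family, and the ubiquitin ligase DTX3L, the partner of PARP9, are encoded close together on chromosome 3 and modulate STAT signalling. Past 2-fold above S were 2 of the 3 in RVC, beside 25.1% of all genes, and all 3 in RVT, beside 35.9%. Their sum was 15.4, 18.8, 47.6 and 103 CPM in S, RV, RVC and RVT, and the ratio of RVT to S was 6.68 (6.19 to 7.21). PARP9 (chr3:122527924-122564577, minus strand) had 2.32, 2.62, 11.5 and 24.1 CPM in S, RV, RVC and RVT. DTX3L (chr3:122564238-122575203, plus strand) had 4.79, 5.40, 9.22 and 26.9 CPM. The ratio to S in RVC was 4.95 (4.06 to 6.07) for PARP9 and 1.92 (1.63 to 2.27) for DTX3L. PARP14 (chr3:122680618-122730840, plus strand) had 8.24, 10.8, 26.9 and 51.5 CPM, 6.25-fold (5.63 to 6.95) above S in RVT, and 1.33%, 1.65%, 4.32% and 7.75% of thinned cells had a UMI.

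The 3 genes known best for their induction by interferon gamma were at least 2-fold above S in RVC and RVT, beside 25.1% and 35.9% of all genes, although for GBP2 in RVC this was lost with TMM factors (log2 0.93), with totals without ribosomal and mitochondrial genes (0.95) and after centring on GC content (0.89). GBP1, a guanylate-binding protein that attacks intracellular pathogens, had 1.13, 1.32, 8.49 and 10.8 CPM in S, RV, RVC and RVT, ratios of 7.54 (5.75 to 10.0) and 9.58 (7.30 to 12.7). Its relative GBP2 had 2.66, 0.687, 5.88 and 17.9 CPM, 3.87-fold (2.68 to 5.73) lower than S in RV and 2.21-fold (1.78 to 2.75) and 6.74-fold (5.61 to 8.14) higher in RVC and RVT. GBP2 overlaps GBP7 on the same strand. IDO1 (chr8:39902275-39928444, plus strand), which degrades tryptophan and dampens T cells, had no UMI in S or RV, but 732 in RVC and 43 in RVT. With S taken at 3 UMIs, it was at least 434-fold higher in RVC and at least 33.1-fold higher in RVT. IDO1 met the minimum of 1 CPM only through these libraries and could not be counted as lower.

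IDO1 was found in many RVC cells, although its UMIs were less evenly spread than those of PLSCR1, IRF1 and BST2, members of like level. In RVC the 1% of cells with most UMIs of the gene held 24.6% for IDO1, 16.3% for PLSCR1, 19.2% for IRF1 and 19.1% for BST2. The 732 IDO1 UMIs lay in 613 cells, 8.04% (7.44% to 8.67%) of the library, with at most 8 in a cell. After thinning 3.61% of RVC and 0.224% of RVT cells had an IDO1 UMI against 0 of 6334 S cells. The latter allows a share of up to 0.0582% of cells with a UMI at this depth and sets no limit on cells that express the gene. The labels name 1 cell line per culture, so that no cell type known to lack IDO1 was at hand to give the share that free RNA leaves. Cells with an IDO1 UMI were then compared with the other RVC cells for a few genes chosen after the co-detection values had been seen. In the 261 thinned cells with IDO1, COL3A1 was 2.13 times (1.75 to 2.58), the matrix metalloproteinase genes MMP1 and MMP3 2.51 and 3.06 times, IFITM2 1.56 times (1.36 to 1.79) and B2M 1.27 times (1.21 to 1.33) as high as in the 6965 without it. This was not particular to IDO1. MMP1 was 2.05, 2.04, 1.90 and 1.61 times as high in RVC cells with BST2, XAF1, IFITM2 and OASL as in those without, and 0.826 times as high in cells with GBP1. MMP3 was 2.45, 2.78 and 1.82 times as high in cells with BST2, XAF1 and IFITM2. With OASL it was 1.02 times (0.788 to 1.31) and with GBP1 0.752 times (0.520 to 1.05) as high. COL3A1 was 2.58 times (1.57 to 4.00) as high in cells with XAF1 and 1.40 times (1.27 to 1.55) in cells with IFITM2, but 1.08 times (0.797 to 1.43) in cells with BST2. The part of these genes in the result was not tested.

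RVT against RVC compares the 2 MEK inhibitors on the same vemurafenib background, within 1 annotation. Of the 42 members with at least 1 CPM in either library, 16 were at least 2-fold higher in RVT, against 23.5% of all genes, and 5 were at least 2-fold lower, against 12.8%. The median log2 ratio of the members was 0.52, beside 0.31 over all genes. With TMM factors 10 members were higher and 6 lower, against 15% and 18.1% of all genes, and the medians were 0.16 for the members and -0.01 for all genes, so that the median member differed little between these libraries while individual members differed in both directions. Higher in RVT were RSAD2 at 6.06-fold (2.46 to 17.9), STAT2 at 3.97-fold (3.57 to 4.43), HERC6 at 5.10-fold (3.91 to 6.73), DDX60 at 4.63-fold (3.32 to 6.56), IFI6 at 4.48-fold (3.72 to 5.43), TRIM22 at 3.33-fold (2.51 to 4.46), GBP2 at 3.05-fold (2.57 to 3.63) and DTX3L at 2.92-fold (2.55 to 3.35). Lower in RVT were XAF1 at 97.9-fold (17.3 to 3896), IDO1 at 13.1-fold (9.64 to 18.3), OASL at 8.96-fold (6.24 to 13.3), BST2 at 3.65-fold (3.03 to 4.42) and IFI27 at 2.14-fold (1.60 to 2.90). IRF7, IFIT2, ISG15, LY6E, IRF9, IFI44L, DDX58 and PARP9 were also higher, by 2.90, 2.78, 2.63, 2.37, 2.28, 2.26, 2.16 and 2.10 times. Of these, LY6E (log2 0.94), IRF9 (0.88), IFI44L (0.87), DDX58 (0.81) and PARP9 (0.77) fell short of 2-fold with TMM factors, as did DDX58 (0.99) with equal weight for every cell and PARP9 (0.94) in cells with at least 1000 genes. RSAD2 was under the minimum of 1 CPM with TMM factors and was not counted there. The other 12 genes given with intervals kept their direction with TMM factors, with totals without ribosomal and mitochondrial genes and after centring on GC content. IFI27 fell short of 2-fold in the latter settings (log2 -0.99 and -0.78). RVC and RVT also differed in the markers given above, SOX10 being at 0 UMIs and COL3A1 at 121 CPM in RVC, against 19.4 and 7.52 CPM in RVT, and the part of this in the result was not tested.

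**Figure D3:**
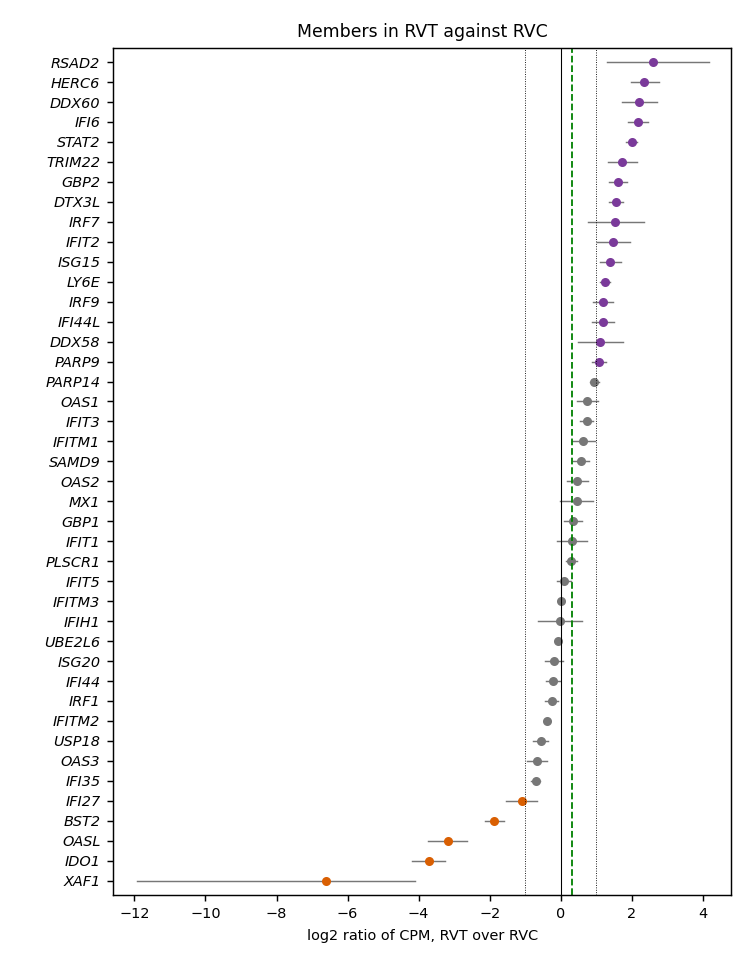
Log2 ratio of CPM, RVT over RVC, for the 42 members with at least 1 CPM in either library, ordered by value, with exact 95% intervals of the ratio. Purple points are at least 2-fold higher in RVT (16 members), orange points at least 2-fold lower (5 members), grey points lie between, and the dashed green line is the median of all genes (0.31).

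The members that were lower in both RVC and RVT are rich in GC near the end of the transcript, the property with which the libraries differ across all genes. GC content of the last 500 bases was 64.4% for ISG15, 63.6% for LY6E, 62.2% for IRF7 and 56.8% for ISG20, beside medians of 44.8% for the members and 42% for all genes in RVC over S. Genes in the same GC bin as ISG15, LY6E and IRF7 had a median log2 ratio of -2.09 in RVC and -1.97 in RVT. Centring within 20 bins of GC content took the median of the bin from each ratio and added back that of all genes, 0.23 in RVC and 0.46 in RVT. Centred values therefore exceed the distance to genes of the same bin by these amounts. With it ISG15 moved from -2.51 to -0.19 in RVC and from -1.12 to 1.32 in RVT, and IRF7 from -3.04 to -0.72 and from -1.50 to 0.93. LY6E moved from -4.11 to -1.79 in RVC and from -2.87 to -0.44 in RVT, whereas ISG20 stayed well below S at -2.76 and -2.64. Conversely IFITM3, at 59% GC, moved from -0.06 to 1.41 in RVC and from -0.04 to 1.76 in RVT. After centring, 23 members were at least 2-fold higher and 3 lower in RVC, against 23.9% and 18.8% of all genes, and 31 higher and 1 lower in RVT, against 34% and 17.3%. Their medians were 1.34 and 2.13, beside 0.23 and 0.46 over all genes. In RVC, ISG15 and IRF7 thus lay within 2-fold of other genes of the same GC content, whereas LY6E and ISG20 lay further below them, and ISG20 did so in RVT as well.

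**Figure D4:**
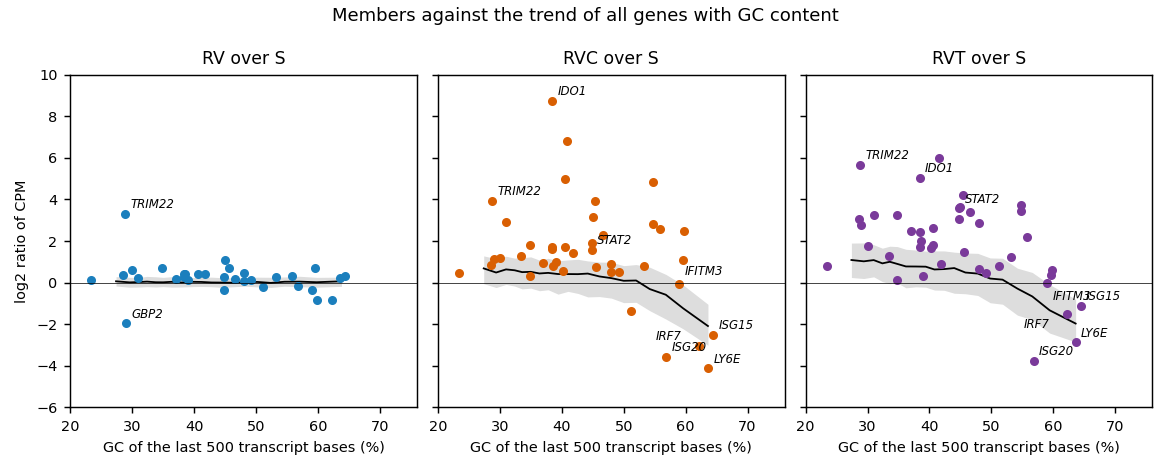
Log2 ratio of CPM to S against the GC content of the last 500 transcript bases, for RV, RVC and RVT. Points are members (IDO1 at its lower bound), the black line joins the medians of all genes in 20 GC bins and the grey band spans their quartiles; the line is flat in RV and falls to -2.09 in RVC and -1.97 in RVT in the bin of highest GC, where ISG15, LY6E and IRF7 lie.

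Among the searched members the median log2 ratio in RVC over S was 1.08 for 22 members with the core and 0.90 for 9 without it, and in RVT over S it was 1.74 for 23 and 1.56 for 8. In RVT over RVC the order was the reverse, 0.45 for 23 members with the core and 0.74 for 9 without it. These groups are small, their members differ in GC content (medians of 40.6% and 46.8% in RVT over S), and the differences were not tested. The 10 members not searched had higher medians, 2.19 in RVC and 2.49 in RVT over S and 0.85 in RVT over RVC.

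Of the 100 other genes of the pathway, 65 had at least 1 CPM in S or RV. In RV 2 of them were at least 2-fold higher and 3 lower, beside 3.89% and 3.27% of all genes. In RVC 23 of 71 were higher than S and 10 lower, and in RVT 33 of 70 were higher and 7 lower, shares to be read beside the 25.1% and 35.9% of all genes that were higher and the 22.8% and 21.7% that were lower. Interferon transcripts themselves were almost absent. Of 19 ligand genes only IFNE, a type I interferon of epithelia that is named here after its values were seen, passed 1 CPM, with 17, 28, 65 and 99 UMIs and 0.290, 0.534, 1.97 and 3.90 CPM in S, RV, RVC and RVT. IFNB1 had 0 UMIs in S, RV and RVC and 1 in RVT. Among the 6 receptor genes 1 was higher and 2 were lower in RVC, and 1 was higher and 1 lower in RVT.

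All 5 kinases and STATs were at least 2-fold above S in RVT, beside 35.9% of all genes, and 1 of 5 was in RVC and 0 in RV. With TMM factors, an alternative chosen after the values were seen, 4 of 5 passed in RVT, beside 22.3% of all genes, and TYK2, at 2.02 times S before, did not. STAT3, which answers mainly to cytokines of the interleukin 6 family, had 24.4, 19.4, 29.7 and 110 CPM in S, RV, RVC and RVT. Of 34 other interferon targets 27 reached 1 CPM, and of these 12 were higher and 2 lower in RVC, beside 25.1% and 22.8% of all genes, and 14 higher and 1 lower in RVT, beside 35.9% and 21.7%. With TMM factors 8 were higher in RVC, beside 18.9% of all genes, and 10 in RVT, beside 22.3%. ADAR, the RNA-editing enzyme, had 34.9, 31.1, 79.1 and 155 CPM in S, RV, RVC and RVT. SP110 had 5.32, 4.68, 27.8 and 27 CPM, and SAMD9L had 1.72, 2.67, 13.1 and 15.4 CPM. TRIM5, which restricts retroviruses, had 1.74, 3.91, 4.37 and 18.1 CPM, and SAMHD1, which depletes nucleotides, had 2.34, 3.23, 9.34 and 21.1 CPM.

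The 17 genes of antigen presentation went both ways. All 17 reached 1 CPM in RVC over S, where 4 were higher and 4 lower, and 16 did in RVT over S, where 5 were higher and 3 lower, shares near or below those of all genes. B2M, the light chain of class I molecules, had 886, 1049, 3095 and 3815 CPM in S, RV, RVC and RVT, and HLA-B had 114, 108, 430 and 619 CPM, so that RVT was 4.31-fold (4.26 to 4.35) and 5.41-fold (5.26 to 5.57) above S. These intervals cover counting error only. TMM factors, 0.875 for S and 1.25 for RVT, would lower both ratios by more than the intervals span. The class II genes CD74 and HLA-DRA were lowest in RVC, with CD74 at 808, 257, 162 and 516 CPM and HLA-DRA at 111, 27, 13 and 84.7 CPM in S, RV, RVC and RVT. Reads of HLA genes can be divided between close relatives, so that the values of HLA-B are less certain. PSMB10, a subunit of the immunoproteasome, had 12.7, 18.7, 2.09 and 2.2 CPM.

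Within single cells the members were sparse, and they were counted after thinning, which left out 397 RVC and 845 RVT cells with fewer than 1500 UMIs and none of S or RV. A thinned cell of S, RV, RVC and RVT had UMIs of 1.37, 1.43, 1.51 and 1.62 members on average, and another random draw gave 1.38 for S and 1.37 for RV, so that the order of these 2 libraries depended on the draw. Without thinning the means were 4.64, 5.92, 3.18 and 2.85, in the order of the median UMIs per cell. No member was seen in 21.1%, 19.8%, 20.5% and 17.3% of cells.

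To ask whether a minority of cells carried the response, 26 members that are induced strongly by type I interferon were counted together. At least 3 of them were detected in 3 of 6334 S cells, 6 of 4177 RV cells, 17 of 7226 RVC cells and 63 of 7600 RVT cells. The shares were 0.0474% (0.00977% to 0.138%) for S, 0.144% (0.0527% to 0.312%) for RV, 0.235% (0.137% to 0.376%) for RVC and 0.829% (0.638% to 1.06%) for RVT. If the members were detected independently of each other, the product of their shares would give 0.0413%, 0.0688%, 0.217% and 0.615%. The variance of the number of these members per cell was 0.996, 1.03, 1.01 and 1.06 times that of independent detection. The interval of the share included the product in S, RV and RVC and lay above it in RVT, where the share was 1.35 times the product. A thinned cell held UMIs of 0.157, 0.186, 0.267 and 0.392 of the 26 members on average, so that a small group of responding cells was not detectable at this depth unless it held many members per cell.

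**Figure D5:**
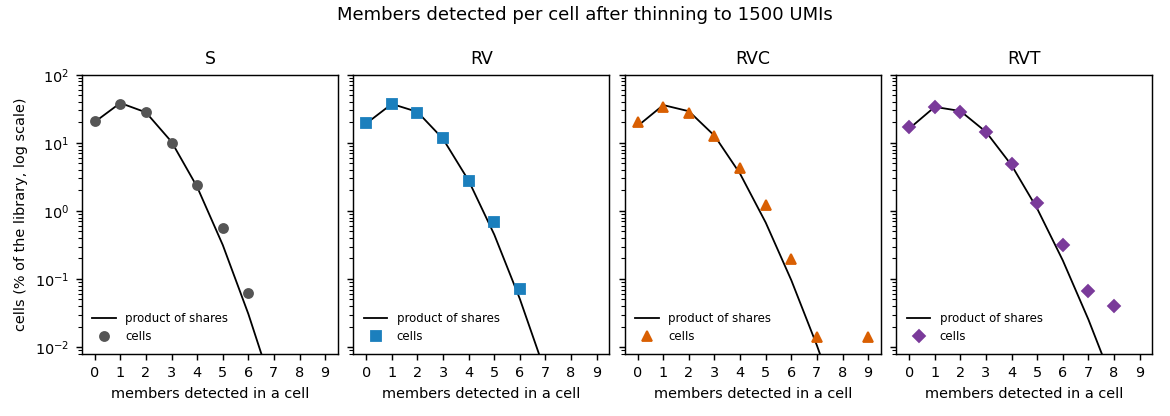
Percent of cells (log axis) by the number of members detected after thinning to 1500 UMIs, in S, RV, RVC and RVT. Symbols are cells and the line is the product of the members' shares, which would hold under independent detection; symbols follow the line up to 3 members and lie above it at 5 and 6 members in each library, and the highest counts were 6 in S and RV, 9 in RVC and 8 in RVT.

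Pairs of members were then compared. Over pairs for which at least 5 cells were expected, the median ratio of cells with both members to the number expected was 1.03 in S (89 pairs), 1.01 in RV (84 pairs), 1.07 in RVC (155 pairs) and 1.05 in RVT (228 pairs). For all 43 members the variance per cell was 1.05, 1.04, 1.16 and 1.08 times the independent value, highest in RVC. The highest ratio of all was that of STAT2 and UBE2L6 in S, at 18 cells against 6.73 expected, and in RV IFITM2 and IFI6 were found together in 14 cells against 6.31. In RVC, IFITM2 and IDO1 were found together in 144 cells against 96.9 expected, and IFITM2 and IFITM3 in 1208 against 1060. STAT2 and IDO1 shared 14 RVC cells against 5.89 expected. In RVT, IFI6 and IFI35 shared 20 cells against 8.95 expected, and IFIT3 and PLSCR1 19 against 9.38. Apart from the pairs of IFITM2 in RVC these ratios rest on few cells, and they were picked among many pairs.

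Outside the list, no gene tracked the number of inducible members in a cell. Among genes detected in at least 5% of thinned cells, the highest Pearson correlations were 0.0464 for NEAT1 in S (6334 cells), 0.0606 for SRSF10 in RV (4177 cells), 0.0804 for MALAT1 in RVC (7226 cells) and 0.0772 for THBS1 in RVT (7600 cells), values too weak to count as a finding in counts this sparse.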

How the data were processed

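Single-cell RNA-seq of 4 cultures of the melanoma line A375, 1 library each, was used. Per the labels and the study's methods, the authors loaded 10000 cells per library on the 10x Chromium system with v2 reagents, and reads were processed with bcl2fastq 2.20.0.422 and Cell Ranger on GRCh38. The deposited values are raw UMI counts per gene and barcode, and the annotation release is not given in the sources used here. Barcodes with at least 500 genes and at most 20% mitochondrial UMIs were kept after those with the highest scrublet scores (scanpy 1.11.5) had been removed at 0.8% per 1000 barcodes. Counts were summed per library and scaled to CPM. Ratios were read against a limit of 2-fold where 1 of the libraries reached 1 CPM or more, and a count of 0 was set to 3 UMIs where a bound was needed. Intervals at 95% are exact Poisson intervals for levels, exact Clopper-Pearson intervals for shares and exact conditional binomial intervals for ratios, and they leave out differences between cultures. With 1 library per condition no test between conditions was possible. Cells were thinned to 1500 UMIs for shares and counts per cell. TMM factors came from edgeR 4.0.16 in R 4.3.3 and were 0.875 to 1.25, and GC centring used 20 bins and added back the median of all genes. Gene coordinates were taken from GENCODE 29. In data simulated for each ratio to S, 200 of 1883 genes were changed 4-fold, and 100% of these came back within 0.5 of the log2 change set. Only counting error was simulated, in genes far above the minimum of 1 CPM, so this was close to given. Most members lie below the levels simulated. Values in every library are given for members with at least 10 CPM, or at least 1 CPM and a ratio to S of at least 2 or at most 0.5, and for other pathway genes with at least 10 CPM and a ratio of at least 4 or at most 0.25. The members, their roles and the other lists were chosen with earlier results of these data known. Alternatives were other filters, scalings, limits and thinning depths. One gene of the pathway is not reported here.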

Additional observations from a re-analysis of the deposited data

Results flagged for a closer look

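GBP2, a guanylate-binding protein gene, was the 1 member that was past 2-fold on one side of S in RV and on the other side in the double-resistant libraries. Its log2 ratio to S was -1.95 in RV and 1.14 in RVC, and -1.95 in RV and 2.75 in RVT, past 2-fold in each case. The RVC value fell short of 2-fold with TMM factors (log2 0.93), with totals without ribosomal and mitochondrial genes (0.95) and after centring on GC content (0.89). The level was 0.687 CPM in RV, beside 2.66 CPM in S, 5.88 CPM in RVC and 17.9 CPM in RVT. These differences were not tested, since each condition is 1 library.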

How the results depend on the processing

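Each condition is 1 culture and 1 library, so library differences and drugs cannot be told apart, and the intervals cover counting error only. No paired analysis was possible because no condition has a second library. In RV over S, 2 members higher became 1 without doublet removal and with all deposited barcodes. They became 0 at 10 CPM, 5 with no minimum and 6 at 1.5-fold. Of all genes 3.91% were higher in each of the former settings, 2.60% at 10 CPM and 8.80% with no minimum. The 1 member lower became 2 with totals without ribosomal and mitochondrial genes, beside 4.40% of all genes. It became 0 at 10 CPM, beside 1.69%, and 3 at 1.5-fold. At 1.5-fold the shares of all genes were not counted. At 10 CPM, 12 of 22 members were higher in RVC and 12 of 23 in RVT over S, beside 25% and 34.5% of all genes, and of 26 in RVT over RVC 9 were higher and 3 lower, beside 19.5% and 12%. TMM factors left 10 higher in RVT over RVC. After GC centring 3 members were lower in RVC and 1 in RVT, and 2 ratios in RVT over S reversed, to log2 0.93 for IRF7 and 1.32 for ISG15.

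Of the values of single members, TMM factors moved 71, GC centring 52, the 2 reversals included, and totals without ribosomal and mitochondrial genes 20 by more than their counting interval, and a minimum of 1000 genes per cell moved none of 156. With TMM factors the ratio to S in RVT of OAS3 (log2 -0.21), UBE2L6 (-0.08), IFI35 (-0.14) and IFI44 (-0.41) turned below 1. In S, RV, RVC and RVT, the members per cell were 0.970, 1.00, 1.05 and 1.14 at 1000 UMIs and 4.64, 5.92, 3.18 and 2.85 without thinning, and 1.37 in RV with another random draw. The share of cells with at least 3 inducible members was 6.35%, 17.5%, 4.66% and 5.16% without thinning, 0.0239% in RV and 0.381% in RVT at 1000 UMIs, and 0.0479% in RV with another draw. The co-detection median was 1.08 in RV at 1000 UMIs, and 1.11, 1.17 and 1.14 in RV, RVC and RVT without thinning. The cause of these changes was not tested.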
